A study of Mus musculus with 11 samples.

Results

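Splicing and gene expression in Rbm38 knockdown cells were set against those in Khsrp knockdown cells, with 2 libraries in each group out of 11 in the series. The cells were Neuro-2A (N2A), a mouse neuroblastoma line, and RNA was collected 48 h after transfection of an siRNA pool against Rbm38 in the one group and against Khsrp in the other. Both groups carried the same transfection treatment with different pools, and the libraries of each group were biological duplicates per the series' design. The other libraries were used to estimate the spread and as points of comparison: 2 with Khsrp and Fubp1 knocked down together, 2 with Fubp1 knocked down, and 3 that received non-targeting pools (siNT). A pool of siRNAs lowers a transcript without removing the gene, and each pool holds several sequences, so off-target effects of a single siRNA could not be separated here.

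Rbm38 is an RNA-binding protein with a single RNA recognition motif that binds U-rich and GU-rich RNA. The gene is a target of p53, and its protein is known for changing the stability of mRNAs such as that of Cdkn1a and for promoting exon inclusion during red cell and muscle maturation. Khsrp, a KH-domain protein and a paralog of Fubp1, binds AU-rich elements, recruits the mRNA decay machinery and helps in the maturation of some microRNAs. It was first described as a splicing factor on the neuronal microexon of Src. Microexons are very short cassette exons, taken here as those of up to 27 nt. Many of them are included chiefly in neurons, where Srrm4 promotes them and Ptbp1 represses many of them.

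The knockdowns followed the labels. For expression the authors' deposited table holds 1 RPKM value per group (reads scaled by gene length and by library depth), so levels carry no error and a ratio between the groups has no replicate check. Rbm38 was at 4.03 RPKM in Rbm38 knockdown cells, against 24.36 RPKM in Khsrp knockdown cells and 34.47 RPKM in siNT cells. Khsrp was at 33.8 RPKM in Rbm38 knockdown cells, against 8.06 RPKM in Khsrp knockdown cells and 47.03 RPKM in siNT cells. In the authors' deposited table the log2 fold change of Rbm38 against siNT was -3.42 (FDR 2.4e-10) in the Rbm38 knockdown and -0.28 (FDR 0.84) in the Khsrp knockdown. For Khsrp the authors' deposited table gives -0.70 (FDR 0.024) in the Rbm38 knockdown and -2.77 (FDR 3.3e-23) in the Khsrp knockdown. These authors' comparisons share the siNT libraries. Khsrp mRNA was thus also lower than in siNT after the Rbm38 knockdown, but about 4 times that of the Khsrp knockdown. Of the markers of the sympathoadrenal line, 13 of 15 reached 1 RPKM, and their summed level was 2172.54 RPKM in Rbm38 knockdown cells, 1897.49 RPKM in Khsrp knockdown cells and 1814.33 RPKM in siNT cells. The 30 markers of glia, mesenchyme, endothelium, immune cells and muscle summed to 10.85 RPKM in Rbm38 knockdown cells, 13.21 RPKM in Khsrp knockdown cells and 8.64 RPKM in siNT cells, and the highest single value was 3.3 RPKM. That value was of Gfap in the Khsrp knockdown, against 1.19 RPKM in the Rbm38 knockdown and 0.33 RPKM in siNT. Of the 30, 6 reached 1 RPKM in each knockdown and 4 in siNT. Dcn was more than 2-fold higher in the Rbm38 than in the Khsrp knockdown, and Gfap, Cd68 and Pdgfra more than 2-fold lower, all at low levels. Myod1, Myog, Aif1, Aqp4, Col3a1 and Sox10 were at 0 in both knockdowns.

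Splicing was given as PSI (percent spliced in), which is how many of the reads over an exon, splice site or intron contain it, in percent. An event was called when its difference had an adjusted p under 0.05 in limma on log2 odds of inclusion over all 11 libraries, with Benjamini-Hochberg adjustment over 60127 events, and reached 10 PSI points. Differences are Rbm38 knockdown minus Khsrp knockdown. Of the 60127 events in 9269 genes, 202 were called (0.336%) in 172 genes, 157 of them higher (0.261%) and 45 lower (0.0748%) in the Rbm38 knockdown. At an unadjusted p under 0.05 there were 4720 events. Calls were unevenly spread over event types. They covered 44 of 478 microexons (9.21%), 128 of 20840 longer cassette exons (0.614%), 24 of 26587 introns (0.0903%), 5 of 7032 alternative 3′ splice sites (0.0711%) and 1 of 5190 alternative 5′ splice sites (0.0193%). All 44 called microexons were more included in the Rbm38 knockdown than in the Khsrp knockdown and none was less included. Among longer exons 98 were higher (0.47%) and 30 lower (0.144%), and among introns 10 were higher (0.0376%) and 14 lower (0.0527%). The median number of reads per tested event was 167 and 166 in the Rbm38 knockdown libraries and 183 and 113 in the Khsrp knockdown libraries. Between the 2 libraries of a group, 17.1% of events in the Rbm38 knockdown and 15.6% in the Khsrp knockdown differed beyond counting error at a nominal 5%, which the fit takes up as spread between libraries. The number of calls rested on each of these 4 libraries: it was 44 without the A and 85 without the B library of the Khsrp knockdown, and 92 without the A and 102 without the B library of the Rbm38 knockdown. It was 150 to 153 without 1 library of the Fubp1 knockdown or of Khsrp and Fubp1 together, and 166, 171 and 235 without siNT A, B and C. No event kept in these fits changed direction, and 36 of the 202 calls, 12 of them microexons, held whichever library was left out. Lost calls are given below for the 4 libraries compared, and some were also lost without 1 of the others.

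Microexons are short enough to be read whole, and 9 called ones that span large and small differences are shown. Clasp2, Ckap5 and Adgrl2, with larger differences than most of them, are not printed here. The sequences below are the exons alone, 5′ to 3′ on the transcribed strand, taken from GENCODE vM21 transcripts (GRCm38) after matching chromosome, exon length and both flanking intron lengths. Capitals are not used in this set, since no part of an exon was singled out. Except for Psap, Mon2 and Eif4g1, which were picked after their values were seen for their small length or even libraries, they follow the rule for named exons.
Ank2, 12 nt, chr3:126979256-126979267, minus strand: taccatccccag
Trappc13, 18 nt, chr13:104152165-104152182, minus strand: agtgacctcagttctgtg
Synj1, 24 nt, chr16:90971564-90971587, minus strand: tttctgaacagacattacagtcag
Psap, 9 nt, chr10:60297537-60297545, plus strand: caggatcag
Mon2, 3 nt, chr10:123023086-123023088, minus strand: aag
Picalm, 24 nt, chr7:90194273-90194296, plus strand: aatggcatgcattttccacaatac
Eif4g1, 21 nt, chr16:20674786-20674806, plus strand: ggaggattcaggtctctgcag
L1cam, 12 nt, chrX:73855652-73855663, minus strand: gtccctggagag
Sptan1, 15 nt, chr2:30014158-30014172, plus strand: ctttccaagctgttg
All of these lie in coding sequence in GENCODE vM21, and each has a length that is a multiple of 3, so that inclusion adds 1 to 8 codons without shifting the frame. Of the 44 called microexons 36 could be matched to GENCODE vM21, and 35 of the matched ones are coding.

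Ank2 encodes ankyrin-B, which ties membrane proteins to the spectrin skeleton. Its 12-nt exon had PSI of 89.4 and 88.8 in the Rbm38 knockdown libraries, against 27.5 and 44.1 in the Khsrp knockdown libraries, with 65.4, 62.9 and 67.4 in siNT. The difference was 53.3 points (limma adjusted p = 0.00393), and the groups were far apart although the Khsrp libraries themselves differed. Synj1 encodes synaptojanin 1, a phosphoinositide phosphatase of synaptic vesicle recycling, and its 24-nt exon had 92.0 and 98.5 in the Rbm38 knockdown, against 52.6 and 57.3 in the Khsrp knockdown and 78.2, 76.9 and 74.4 in siNT (40.4 points, limma adjusted p = 0.00365). The calls of Ank2 and Synj1 were lost without the A library of the Khsrp knockdown, and that of Ank2 also without the A library of the Rbm38 knockdown. The 18-nt exon of Trappc13, a subunit of the TRAPP complex that tethers vesicles, had 76.3 and 74.7 in the Rbm38 knockdown, against 32.8 and 31.0 in the Khsrp knockdown and 54.2, 51.3 and 50.8 in siNT (43.6 points, limma adjusted p = 1.79e-05). This call held in every setting that was run. Picalm, a clathrin assembly adaptor, had 51.6 and 54.8 in the Rbm38 knockdown, against 21.5 and 21.3 in the Khsrp knockdown and 39.8, 36.8 and 36.3 in siNT at its 24-nt exon (31.8 points, limma adjusted p = 6.31e-05). In all 4 genes the siNT libraries lay between the knockdowns.

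Clasp2, which binds growing microtubule ends, had PSI of 79.5 and 71.1 in the Rbm38 knockdown, against 30.2 and 30.2 in the Khsrp knockdown and 48.6, 45.2 and 49.7 in siNT at a 24-nt exon (45.1 points, limma adjusted p = 0.00174, a call lost without the A library of the Khsrp knockdown). Ckap5, a microtubule polymerase, had 74.0 and 75.5 in the Rbm38 knockdown, against 37.6 and 32.7 in the Khsrp knockdown and 56.5, 48.3 and 47.2 in siNT at a 24-nt exon (39.6 points, limma adjusted p = 0.000176). Its match in GENCODE vM21 is in a transcript without a coding sequence. The inner centromere protein gene Incenp and the dynein adaptor genes Hook3 and Spag9 were also among the called microexon hosts, each with a call that was lost without the A library of either knockdown. The call of Spag9 was also lost without the B library of the Khsrp knockdown, and that of Hook3 without either B library.

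The smallest p-value of any microexon belonged to the 9-nt exon of Psap, which encodes prosaposin, the precursor of lysosomal saposins that help in sphingolipid breakdown. Its PSI was 66.6 and 65.3 in the Rbm38 knockdown, against 29.2 and 30.7 in the Khsrp knockdown and 44.9, 44.9 and 46.3 in siNT (36.0 points, limma adjusted p = 9.8e-09). Replicates of each group lay within a few points of each other. Unlike most called microexons, that of Psap had 55.5 and 55.9 in the knockdown of Khsrp and Fubp1 together, above siNT. The 3-nt exon of Mon2, a gene of Golgi and endosome traffic, had 56.2 and 46.8 in the Rbm38 knockdown, against 12.6 and 18.4 in the Khsrp knockdown (36.0 points, limma adjusted p = 0.00393). In the translation initiation scaffold Eif4g1 a 21-nt exon had 60.2 and 58.7 in the Rbm38 knockdown, against 31.2 and 25 in the Khsrp knockdown (31.4 points, limma adjusted p = 0.00294). The calls of Psap and Eif4g1 held without each library, and that of Mon2 was lost without the A library of the Khsrp knockdown.

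Smaller differences were among the other named microexons. L1cam, a neural adhesion molecule, had PSI of 69.1 and 65.0 in the Rbm38 knockdown, against 42.2 and 43 in the Khsrp knockdown and 51.1, 55.6 and 55.1 in siNT at a 12-nt exon (24.5 points, limma adjusted p = 0.000429). The 15-nt exon of Sptan1, αII-spectrin, had 85.7 and 85.6 in the Rbm38 knockdown, against 71.4 and 72.5 in the Khsrp knockdown and 72.9, 71.7 and 70.6 in siNT (13.7 points, limma adjusted p = 0.00804). Here siNT overlapped the Khsrp knockdown and the Rbm38 knockdown stood above both. The neural adhesion gene Ncam1 had 82.0 and 85.6 in the Rbm38 knockdown, against 69.7 and 70.5 in the Khsrp knockdown at a 3-nt exon (13.7 points, limma adjusted p = 0.0105). Tenm3, a teneurin that guides synaptic partners, held a pair of called microexons of 21 and 27 nt, with differences of 29.5 and 22.4 points. The 24-nt exon of Mef2a, a transcription factor of muscle and neurons, was lower throughout, at 26.6 and 25.2 in the Rbm38 knockdown, against 8.3 and 10.5 in the Khsrp knockdown (16.5 points, limma adjusted p = 0.0458). The calls of L1cam and of the 21-nt exon of Tenm3 held without each library, and that of the 27-nt exon was lost without the A library of the Khsrp knockdown. Those of Sptan1, Ncam1 and Mef2a were lost without either Khsrp knockdown library, and also without the A library of the Rbm38 knockdown for Sptan1, its B library for Ncam1 and either of them for Mef2a.

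**Figure D1:**
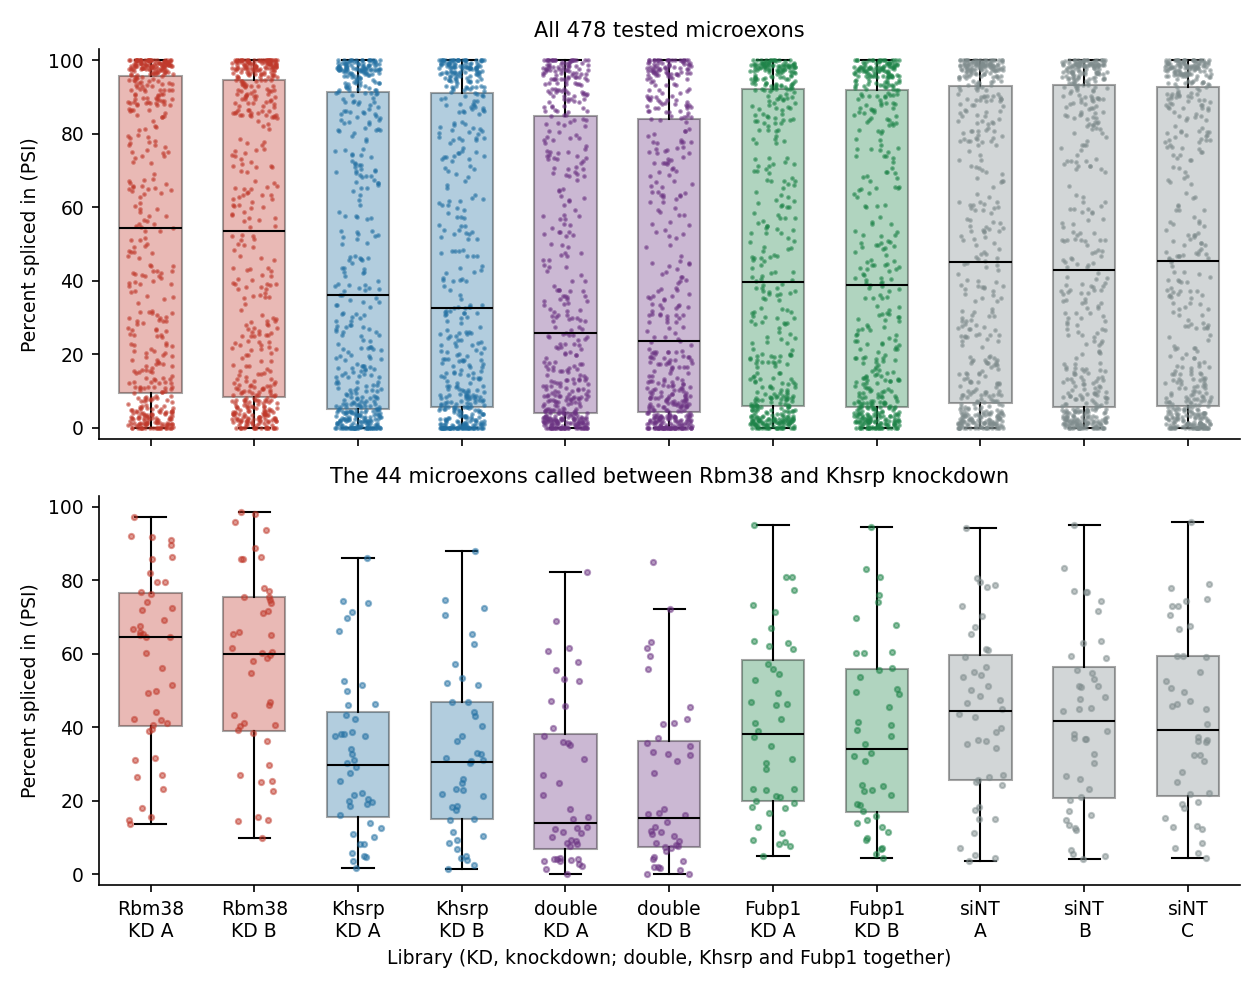
PSI of microexons in each of the 11 libraries, with all 478 tested microexons above and the 44 called ones below; boxes give the median and quartiles and points are exons. The called microexons had medians of 64.5 and 60.0 in the Rbm38 knockdown libraries, against 29.7 and 30.4 in the Khsrp knockdown libraries, with siNT between them.

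The shift was also seen over all 478 tested microexons, the called ones included. Their mean PSI was 52.5 and 51.8 in the Rbm38 knockdown libraries and 45.7 and 45.2 in the Khsrp knockdown libraries. In the siNT libraries the mean was 48.7, 48.1 and 48.2. The median PSI lay further apart, at 54.5 and 53.6 in the Rbm38 knockdown libraries and 36.2 and 32.7 in the Khsrp knockdown libraries. It was 45.2, 42.9 and 45.4 in the siNT libraries. The Fubp1 knockdown libraries had medians of 39.7 and 38.8, and those with Khsrp and Fubp1 knocked down together had 25.8 and 23.6, the lowest of the series. The median difference between Rbm38 and Khsrp knockdown was 2.86 points over the tested microexons, against 0.01 points over the longer exons and 0.0 over all events. Both Rbm38 knockdown libraries lay above both Khsrp knockdown libraries in 253 microexons (52.9%), and below them in 34 (7.11%). For longer exons the shares were 19.9% above and 16.9% below, and over all events 17.6% above and 18.2% below. A difference of at least 10 points, called or not, was found upward in 124 microexons and downward in 4. Among the 123 microexons with a mean PSI of 20 to 80 in siNT the median difference was 17.3 points, and 34 were called, all higher. Longer exons in the same PSI range numbered 2145, with a median difference of 0.18 points and 64 called higher and 19 lower.

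The shift varied with exon length. Exons of 3 to 9 nt had a median difference of 0.99 points with 7 of 85 called, those of 10 to 15 nt had 5.75 points with 14 of 95 called, those of 16 to 21 nt had 3.38 points with 10 of 121 called, and those of 22 to 27 nt had 2.23 points with 13 of 177 called. Exons of 28 to 42 nt, just past the microexon limit, had a median difference of 0.62 points, and 25 of 714 were called higher and 1 lower. From 43 nt on the medians lay between 0.00 and 0.06 points, and the called exons were 73 higher and 29 lower. Of the 44 called microexons 43 had a length that is a multiple of 3 (97.7%), against 370 of the 478 tested (77.4%). The same held for 77 of the 98 longer exons called higher (78.6%) and 22 of the 30 called lower (73.3%), against 39.5% of the longer exons tested.

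**Figure D2:**
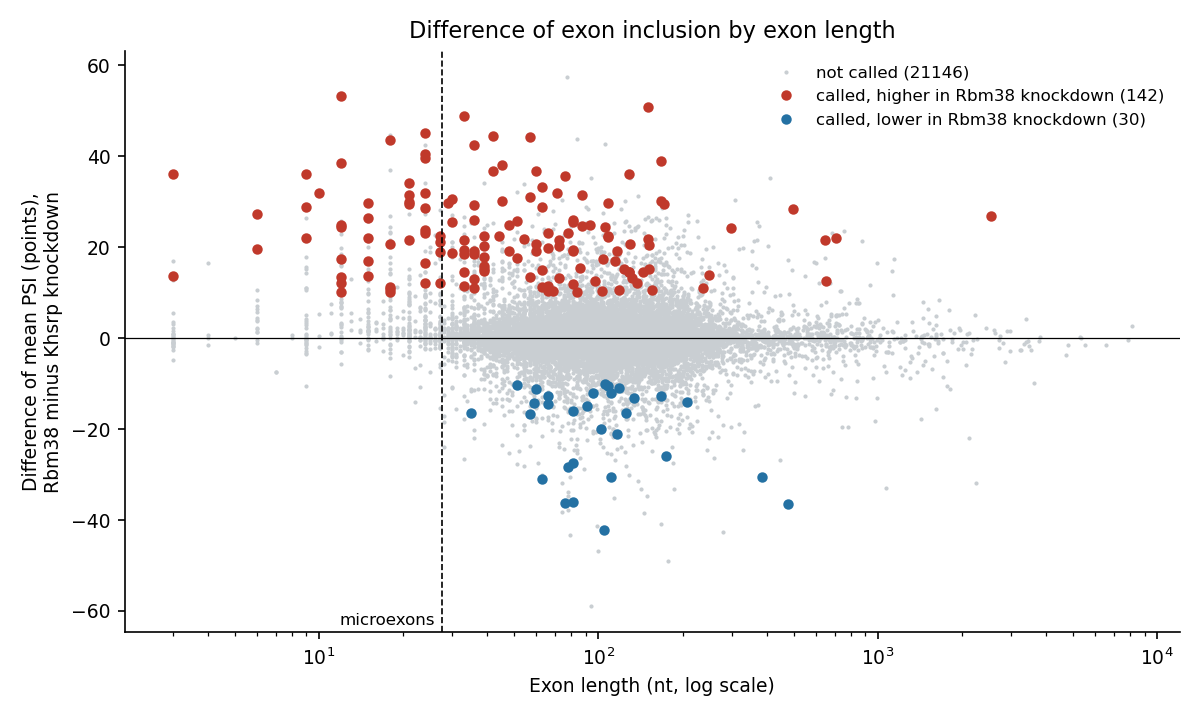
Difference in PSI (Rbm38 minus Khsrp knockdown, in points) against exon length in nt on a log axis for 21318 exons, with called exons coloured by direction and a dashed line at 27 nt. All called exons left of the line lie above 0, and called exons lie on both sides of 0 to the right of it.

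Of the longer exons called higher, the largest difference was in Gabbr1, a subunit of the GABA-B receptor, whose 151-nt coding exon (chr17:37067214-37067364 in GRCm38) had PSI of 84.4 and 87.8 in the Rbm38 knockdown, against 33.2 and 37.3 in the Khsrp knockdown and 55.7, 56.9 and 44.1 in siNT (50.9 points, limma adjusted p = 0.000469). Numa1, which organises spindle poles, had 87.1 and 85.8 in the Rbm38 knockdown, against 40.1 and 44.0 in the Khsrp knockdown and 71.0, 72.0 and 69.7 in siNT at a 42-nt exon (44.4 points, limma adjusted p = 6.42e-06). Kif1b, a kinesin that carries synaptic vesicle precursors and mitochondria, had 57.5 and 54.5 in the Rbm38 knockdown, against 19.6 and 19.1 in the Khsrp knockdown and 37.5, 38.2 and 37.9 in siNT at a 42-nt exon (36.6 points, limma adjusted p = 2.45e-06). Each of these calls held in every setting that was run. The exons of Numa1 and Kif1b have one length and no shared start, as their sequences show.
Numa1, 42 nt, chr7:102002295-102002336, plus strand: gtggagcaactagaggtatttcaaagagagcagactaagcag
Kif1b, 42 nt, chr4:149261160-149261201, minus strand: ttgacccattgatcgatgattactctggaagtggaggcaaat

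Dync1i2, an intermediate chain of dynein, had PSI of 59.9 and 53 in the Rbm38 knockdown, against 21.4 and 18.2 in the Khsrp knockdown and 32.2, 28.6 and 31.0 in siNT at a 60-nt exon (36.7 points, limma adjusted p = 0.000172). Tsc2, which restrains mTORC1, had 93.1 and 91.3 in the Rbm38 knockdown, against 58.6 and 53.5 in the Khsrp knockdown at a 129-nt exon (36.1 points, limma adjusted p = 0.00202). Ubr4, a ubiquitin ligase, had 58.8 and 58.8 in the Rbm38 knockdown, against 11.3 and 8.9 in the Khsrp knockdown and 27.6, 25.1 and 32.7 in siNT at a 33-nt exon (48.7 points, limma adjusted p = 0.00151). The autophagy gene Atg16l1 had 78.0 and 60.8 in the Rbm38 knockdown, against 25.4 and 25 in the Khsrp knockdown (44.2 points, limma adjusted p = 0.00751). Prune2 (36 nt, 42.3 points) and Asph (45 nt, 37.9 points) were higher as well. Without the A library of the Khsrp knockdown the calls of Ubr4, Atg16l1, Prune2 and Asph were lost, and those of Atg16l1 and Asph also without its B library, while Tsc2 and Dync1i2 kept theirs without each library.

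Mapt, which encodes the microtubule-binding protein tau, held 4 called exons, more than any other gene, and all were more included in the Rbm38 knockdown. The 93-nt exon, which adds a microtubule-binding repeat, had PSI of 58.3 and 64.8 in the Rbm38 knockdown, against 38.2 and 35.1 in the Khsrp knockdown and 38.9, 45.5 and 41.6 in siNT (24.9 points, limma adjusted p = 0.00768). An 87-nt exon had 52.1 and 51.8 in the Rbm38 knockdown, against 19.7 and 21.2 in the Khsrp knockdown (31.5 points, limma adjusted p = 0.000693), and a further 87-nt exon had 32.4 and 31.1 in the Rbm38 knockdown, against 7.1 and 7.3 in the Khsrp knockdown (24.6 points, limma adjusted p = 6.31e-05). The 711-nt exon, known from the large form of tau in peripheral neurons, had 29.5 and 27.5 in the Rbm38 knockdown, against 7.7 and 5.4 in the Khsrp knockdown (21.9 points, limma adjusted p = 0.00076). No Rbm38 knockdown library overlapped a Khsrp knockdown library at any of these exons, which is easier to meet at called exons. Over all longer exons tested, the Rbm38 knockdown libraries lay above the Khsrp knockdown libraries in 19.9% and below them in 16.9%. The calls of the 93-nt exon and of the first 87-nt exon were lost without the A library of the Khsrp knockdown, that of the 93-nt exon also without either B library, and those of the other 87-nt exon and the 711-nt exon held without each library. The giant 2550-nt exon of Ank3, ankyrin-G of the axon initial segment, had 43.5 and 49.1 in the Rbm38 knockdown, against 20.1 and 18.9 in the Khsrp knockdown (26.8 points, limma adjusted p = 0.023), a call lost without any 1 of the 4 libraries compared.

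Mutually exclusive exon pairs gave calls in opposite directions within a gene. Tpm1 encodes a tropomyosin, which lies along actin filaments, and uses either of a pair of 76-nt exons in its middle. The upstream exon of the pair had PSI of 33.7 and 26.5 in the Rbm38 knockdown, against 66.8 and 66.1 in the Khsrp knockdown and 47.3, 43.2 and 41.9 in siNT (-36.4 points, limma adjusted p = 7.89e-05). The downstream exon had 67.3 and 72.1 in the Rbm38 knockdown, against 35 and 33.1 in the Khsrp knockdown and 50.9, 55.3 and 55.8 in siNT (35.6 points, limma adjusted p = 6.97e-05). Both calls held in every setting that was run, though the pair shares reads and counts as 1 choice. The exons are shown because the choice between them exchanges 1 stretch of the protein for a related one. They differ at 33 of 76 bases, in capitals, and are 56.6% identical.
Tpm1 upstream, chr9:67032466-67032541, minus strand: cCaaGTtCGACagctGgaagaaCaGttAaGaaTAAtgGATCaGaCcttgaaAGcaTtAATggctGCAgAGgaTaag
Tpm1 downstream, chr9:67031951-67032026, minus strand: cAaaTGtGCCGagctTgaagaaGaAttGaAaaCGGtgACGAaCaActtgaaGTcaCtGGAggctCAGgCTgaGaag

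Pkm, the glycolytic enzyme pyruvate kinase, uses one of a pair of 167-nt exons that give the M1 and M2 forms. The exon at chr9:59675029-59675195 (GRCm38), the upstream one of the pair and the one used in the M1 form, had PSI of 46.8 and 43.8 in the Rbm38 knockdown, against 14.9 and 15.2 in the Khsrp knockdown and 31.2, 29.8 and 29.8 in siNT (30.2 points, limma adjusted p = 8.94e-08). A Pkm event of 475 nt, whose length could not be matched to a GENCODE vM21 exon, had 36.7 and 38.7 in the Rbm38 knockdown, against 74.8 and 73.4 in the Khsrp knockdown and 49.6, 51.6 and 54.3 in siNT (-36.4 points, limma adjusted p = 1.74e-06). Both calls held in every setting that was run. In Snap25, a SNARE protein of synaptic vesicle fusion, a pair of 118-nt exons that differ at 31 bases (73.7% identical) changed by less. The upstream exon had 84.8 and 85.4 in the Rbm38 knockdown, against 96.7 and 95.5 in the Khsrp knockdown (-11.0 points, limma adjusted p = 0.0315). The downstream exon had 15.6 and 14.3 in the Rbm38 knockdown, against 4.2 and 4.7 in the Khsrp knockdown (10.5 points, limma adjusted p = 0.000756). Their differing bases are again in capitals.
Snap25 upstream, chr2:136769743-136769860, plus strand: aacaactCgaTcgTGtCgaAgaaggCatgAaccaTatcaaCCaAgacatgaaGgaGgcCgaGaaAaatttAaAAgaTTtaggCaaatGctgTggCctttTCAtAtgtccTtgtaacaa
Snap25 downstream, chr2:136770057-136770174, plus strand: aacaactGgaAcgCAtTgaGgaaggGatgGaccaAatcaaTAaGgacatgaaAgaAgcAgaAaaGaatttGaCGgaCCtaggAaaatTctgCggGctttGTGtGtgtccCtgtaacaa
The Snap25 calls were lost without the A library of either knockdown, and that of the upstream exon also without either B library.

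Among the other longer exons called lower in the Rbm38 knockdown, Evl, an Ena/VASP protein of actin growth, had PSI of 37.7 and 30.9 in the Rbm38 knockdown, against 66.7 and 64.1 in the Khsrp knockdown at a 63-nt exon (-31.1 points, limma adjusted p = 0.00216). Myo5a, the myosin V motor, had 31.8 and 32.9 in the Rbm38 knockdown, against 60.9 and 58.5 in the Khsrp knockdown at an 81-nt exon (-27.4 points, limma adjusted p = 0.00434). Dst, a spectraplakin that links cytoskeletal filaments, had 56.6 and 47.9 in the Rbm38 knockdown, against 82.1 and 83.7 in the Khsrp knockdown at a 111-nt exon (-30.6 points, limma adjusted p = 0.00843). Ssbp3 (-36.0 points), Rhbdd3 (-30.6 points), Sbf1 (-28.4 points) and Acad10 (-25.9 points) were also lower in the Rbm38 knockdown. Aplp2, a relative of the amyloid precursor gene App, had 57.2 and 57.6 in the Rbm38 knockdown, against 69.4 and 70.9 in the Khsrp knockdown at a 168-nt exon (-12.7 points, limma adjusted p = 0.000609), and its call held without each library. App itself had a 57-nt exon that moved the other way, at 29.6 and 34.4 in the Rbm38 knockdown, against 20.4 and 16.9 in the Khsrp knockdown. The calls of Evl, Myo5a, Dst, Ssbp3, Rhbdd3, Sbf1 and App were lost without the A library of the Khsrp knockdown, and those of Dst, Ssbp3, Rhbdd3, Acad10 and App without its B library. Leaving out the A library of the Rbm38 knockdown ended those of Myo5a, Ssbp3, Rhbdd3 and Acad10, and leaving out its B library those of Dst, Ssbp3, Rhbdd3, Acad10 and App.

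**Figure D3:**
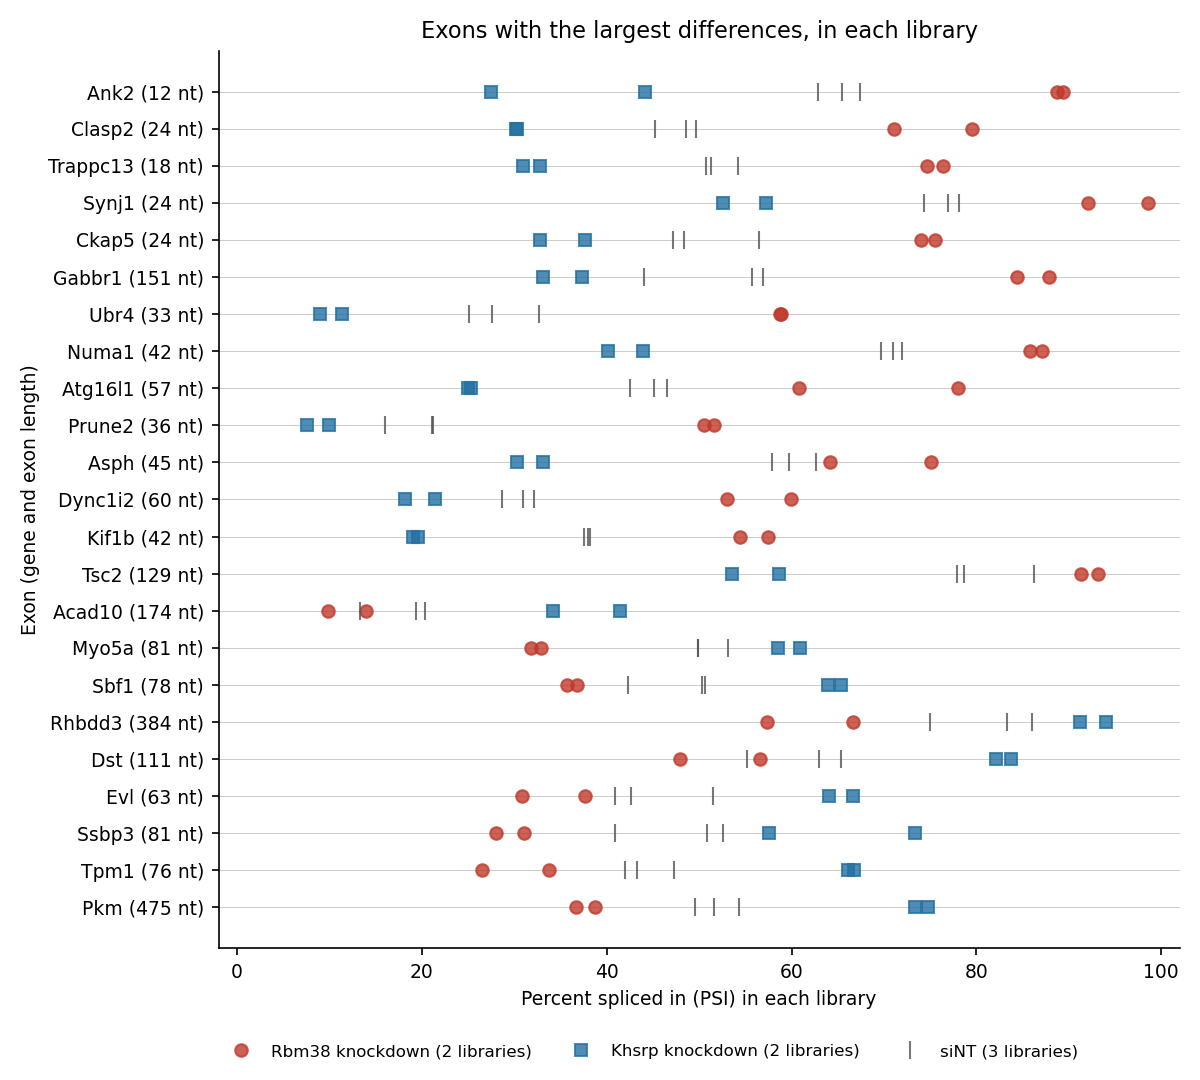
PSI in percent for 23 exons, each library a point: circles for Rbm38 knockdown, squares for Khsrp knockdown and ticks for siNT. The exons are the 5 microexons with the largest differences and 18 longer exons from among the largest differences in each direction. Only exons at which the libraries of the knockdowns did not overlap could be chosen, so circles and squares lie apart in every row.

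Introns gave few calls, and most rested on uneven evidence. In 19 of the 24 called introns (79.2%) the reads at the 2 ends of the intron were out of balance in at least 1 of the 4 libraries, against 23.8% of the tested introns, so that retention of the whole intron cannot be told apart from another transcript end or start inside it. The 5 balanced ones were in Dnajb2, Rif1, Atp2a2 and, at 2 introns, Khsrp. Dnajb2, a neuronal co-chaperone, had a 1132-nt intron at PSI of 62.6 and 68.8 in the Rbm38 knockdown, against 25.7 and 32.3 in the Khsrp knockdown (36.7 points, limma adjusted p = 0.0482). Introns of Khsrp itself were less retained in the Rbm38 knockdown. The 1047-nt intron had PSI of 6.7 and 6.6 in the Rbm38 knockdown, against 45.4 and 43 in the Khsrp knockdown and 4.4, 2.2 and 9.6 in siNT (-37.6 points, limma adjusted p = 0.0232). The 75-nt intron had 4.4 and 2.4 in the Rbm38 knockdown, against 21 and 22.6 in the Khsrp knockdown and 2.5, 1.7 and 4.0 in siNT (-18.4 points, limma adjusted p = 0.0123). All 11 tested introns of Khsrp had a lower PSI in the Rbm38 knockdown than in the Khsrp knockdown, and 2 were called. The level of Khsrp mRNA was also about 4 times lower in the Khsrp knockdown, and the part of that loss in the intron values was not tested. Of the introns with unbalanced ends, Strada was higher in the Rbm38 knockdown (40.0 points) and Trpm2, Cant1 and 2 introns of Sptan1 were lower, by 28.8, 32.2, 25.6 and 15.9 points. Each of these intron calls was lost without any 1 of the 4 libraries compared, except that of Trpm2, which was lost only without the A library of the Rbm38 knockdown among these 4.

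Alternative splice sites gave 6 calls, with 3′ sites higher in 4 (0.0569%) and lower in 1 (0.0142%). Krit1, a scaffold of endothelial and epithelial junctions, used a 3′ site that adds 46 nt at PSI of 49.3 and 56.1 in the Rbm38 knockdown, against 17.6 and 22.1 in the Khsrp knockdown and 28.3, 32.3 and 31.0 in siNT (32.9 points, limma adjusted p = 0.000789). Its call held without each library. Competing 3′ sites of the DNA and RNA demethylase gene Alkbh1 moved in opposite directions, by 19.9 and -19.4 points, and belong to 1 choice. The glycosyltransferase gene Alg13 (17.9 points) and a 3-nt site of Ncam1 (15.8 points) were higher as well, and so was the only called 5′ site, in the ESCRT gene Chmp2a (11.1 points). Ncam1 also held the called 3-nt microexon given above, and whether the site and the microexon belong to 1 choice was not tested. The calls of Alkbh1, Alg13, Ncam1 and Chmp2a were lost without the A library of the Khsrp knockdown, and all but that of Chmp2a also without the B library of the Rbm38 knockdown.

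Events that earlier work ties to either protein were looked at by name. The 18-nt neuronal exon of Src, a tyrosine kinase gene, had PSI of 39.2 and 33.8 in the Rbm38 knockdown, against 19.4 and 25 in the Khsrp knockdown and 31.8, 23.8 and 5.0 in siNT (14.3 points, limma adjusted p = 0.74). Its direction was that of the called microexons, but the siNT libraries alone spanned a wider range than the difference. None of the 4 tested events of Src was called. Epb41, the red cell membrane skeleton gene whose exon choice Rbm38 promotes in erythroid cells, had 11 tested events and none was called, with a smallest limma adjusted p of 0.579. Its relatives did hold calls. Epb41l1 had a 36-nt exon at 84.6 and 82.4 in the Rbm38 knockdown, against 61.3 and 53.7 in the Khsrp knockdown, Epb41l2 a 63-nt exon with a difference of 28.9 points, and Epb41l3 exons of 123 and 36 nt that were higher and one of 66 nt that was lower. The calls of Epb41l1 and of the 66-nt exon of Epb41l3 held without each library, and those of Epb41l2 and the other Epb41l3 exons were lost without the A library of the Khsrp knockdown. The 2 tested introns of Rbm38 were not called, and one of them, of 521 nt, had 24.2 and 7.2 in the Rbm38 knockdown, against 1.8 and 2.0 in the Khsrp knockdown. A list of 110 genes known for regulated exons in neurons, muscle and blood had 945 tested events in 97 genes, of which 34 were called higher and 10 lower (4.66%, against 0.336% of all events). Its 69 microexons had a median difference of 7.88 points with 9 called (13.0%), all higher, against a median of 2.86 points and 9.21% called over all tested microexons. The list was chosen with results of these data known, and nothing particular to it was tested.

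The siNT libraries mostly lay between the knockdowns at the called exons. Of the 3 siNT libraries only C carries a number in the set of the knockdown libraries (8 to 27), while A and B are numbered 1 and 3, and what the numbers stand for is not given. With siNT C alone, the Khsrp knockdown was the nearer one at 34 of the 44 called microexons and at 133 of all 202 calls. It was the nearer one to siNT C at 257 of the 478 tested microexons and 10803 of the 20840 longer exons tested. For 35 of the 44 called microexons all 3 siNT libraries lay between the Rbm38 libraries and the Khsrp libraries, as they did for 71 of the 98 longer exons called higher and 16 of the 30 called lower. In the events tested this order was found, in either direction, for 71 of 478 microexons and 494 of 20840 longer exons, though calls had to differ and this order is easier to meet where they do. Both Rbm38 knockdown libraries were above all siNT libraries at 42 called microexons, and both Khsrp knockdown libraries were below all siNT libraries at 37. Over the 478 tested microexons these counts were 175 and 144, and such positions too are easier to meet among calls. The mean of siNT was nearer to the Khsrp knockdown at 32 of the 44 and nearer to the Rbm38 knockdown at 12, while over the 478 tested microexons it was nearer to the Khsrp knockdown at 241 and to the Rbm38 knockdown at 237. Over all 202 calls, siNT was nearer to the Khsrp knockdown at 124 and to the Rbm38 knockdown at 78. The libraries with Khsrp and Fubp1 knocked down together were nearer to the Khsrp knockdown at 174 of the 202 calls and at 41 of the 44 called microexons, against 338 of the 478 tested microexons and 12865 of the 20840 longer exons tested. The Fubp1 libraries had a median PSI at the called microexons of 38.2 and 34.2.

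Levels of the genes that hold called microexons were mostly close between the knockdowns. A ratio was available for 42 of 43 host genes. Their median log2 ratio was -0.05, and only Sptan1 passed 2-fold. Ank2 was at 19.15 RPKM in the Rbm38 knockdown and 11.71 RPKM in the Khsrp knockdown, and Synj1 at 21.21 RPKM in the Rbm38 knockdown and 19.42 RPKM in the Khsrp knockdown. Clasp2 was at 30.51 RPKM in the Rbm38 knockdown and 33.49 RPKM in the Khsrp knockdown, and Ckap5 at 98.9 RPKM in the Rbm38 knockdown and 91.85 RPKM in the Khsrp knockdown, all by the authors' values. Known regulators of microexons, named after their values were seen, were closer between the knockdowns than 2-fold. Srrm4 was at 8.79 RPKM in the Rbm38 knockdown and 9.47 RPKM in the Khsrp knockdown (log2 ratio -0.10), and its paralog Srrm3 at 19.68 RPKM in the Rbm38 knockdown and 13.66 RPKM in the Khsrp knockdown (0.51). Ptbp1 was at 246.52 RPKM in the Rbm38 knockdown, 337.5 RPKM in the Khsrp knockdown and 396.22 RPKM in siNT (log2 ratio -0.45). In the authors' deposited table Ptbp1 had a log2 fold change against siNT of -0.63 (FDR 0.00093) in the Rbm38 knockdown and -0.20 (FDR 0.51) in the Khsrp knockdown. Ptbp2 was at 72.73 RPKM in the Rbm38 knockdown, 52.82 RPKM in the Khsrp knockdown and 104.17 RPKM in siNT. Rbfox2 was at 69.54 RPKM in the Rbm38 knockdown, 51.57 RPKM in the Khsrp knockdown and 54.28 RPKM in siNT. With 1 value per group none of these ratios was tested, and their part in the splicing differences was not tested.

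Across 13153 genes with at least 1 RPKM in either knockdown, 919 (6.99%) were past 2-fold, 528 (4.01%) of them higher and 391 (2.97%) lower in the Rbm38 knockdown, on the scale log2(RPKM + 0.5), which understates the ratio of low genes. The median log2 ratio was -0.0030. Of the 12 highest ratios 6 belong to loci named only by a clone. The others are Chst15, a chondroitin sulfotransferase gene, Ubb, Got1l1, Defb30, Banf2os and Igkv4-78. Chst15 was at 27.36 RPKM in the Rbm38 knockdown, 3.14 RPKM in the Khsrp knockdown and 4.14 RPKM in siNT. In the authors' deposited table Chst15 had log2 fold changes against siNT of 1.97 (FDR 7.9e-17) in the Rbm38 knockdown and 0.71 (FDR 0.021) in the Khsrp knockdown, so its ratio from RPKM of 2.94 is larger than the difference of those values, 1.26.

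Ubb, which encodes ubiquitin, had one of the highest ratios, with the limit that its repeats are near-identical to those of other ubiquitin genes, between which the authors' counting could have divided reads. Ubb was at 1044.87 RPKM in the Rbm38 knockdown, 157.54 RPKM in the Khsrp knockdown and 960.44 RPKM in siNT (log2 ratio 2.73 between the knockdowns). Against siNT the authors' deposited table gives Ubb a log2 fold change of 0.07 (FDR 0.86) in the Rbm38 knockdown and -2.62 (FDR 4.1e-61) in the Khsrp knockdown.

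Of the 12 lowest ratios, 3 are clone names and Snora78, Snora5c and Snord11 are small nucleolar RNAs, which a poly(A) library captures poorly. Htr3a, a serotonin-gated ion channel subunit, was at 24.19 RPKM in the Rbm38 knockdown, 183.92 RPKM in the Khsrp knockdown and 46.08 RPKM in siNT (log2 ratio -2.90). Against siNT the authors' deposited table gives Htr3a a log2 fold change of -0.96 (FDR 2.4e-10) in the Rbm38 knockdown and 2.01 (FDR 3e-50) in the Khsrp knockdown. Myl9, a myosin regulatory light chain of smooth muscle, was at 8.03 RPKM in the Rbm38 knockdown, 54.91 RPKM in the Khsrp knockdown and 4.71 RPKM in siNT (-2.70). Acad10, which also held a called exon, was at 1.81 RPKM in the Rbm38 knockdown, 15.2 RPKM in the Khsrp knockdown and 2.56 RPKM in siNT (-2.76). Cox4i2, a cytochrome oxidase subunit, Calml4 and Rbm38 itself complete the 12.

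**Figure D4:**
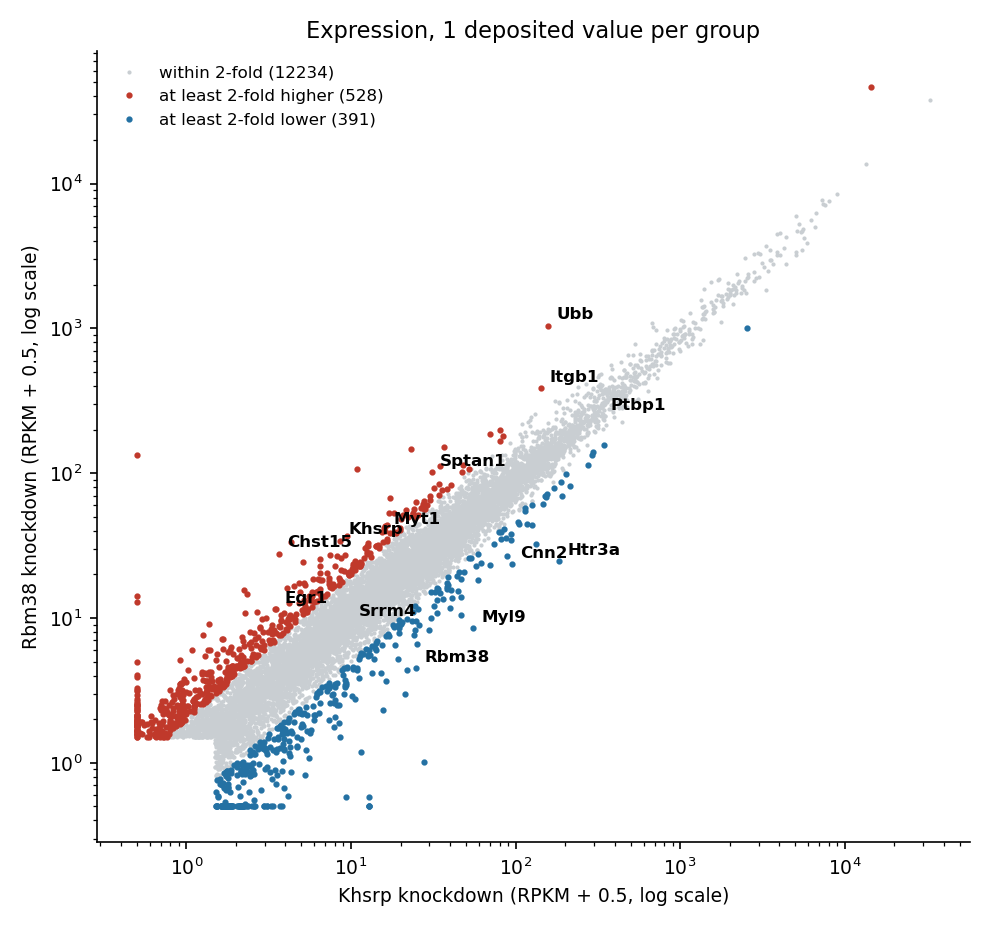
Expression in Rbm38 knockdown cells (y axis) against Khsrp knockdown cells (x axis) as RPKM + 0.5 on log axes, 1 value per group for 13153 genes. Genes at least 2-fold higher or lower are coloured by direction. Ubb and Chst15 are among those higher, and Htr3a, Myl9 and Rbm38 among those lower.

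Genes of actomyosin contraction were mostly lower in the Rbm38 knockdown. Of 32 at 1 RPKM or more, 24 had a ratio below 0 and 8 above, with a median log2 ratio of -0.37 against -0.0030 over all genes. Past 2-fold lower were 6 of the 32, against 2.97% of all genes, namely Myl9, Cnn2, Cnn1, Actg2, Myl12a and Acta2. Cnn1 was near the floor, at 0.04 RPKM in the Rbm38 knockdown, 1.21 RPKM in the Khsrp knockdown and 0.23 RPKM in siNT. Cnn2, a calponin, was at 23.02 RPKM in the Rbm38 knockdown, 94.59 RPKM in the Khsrp knockdown and 66.38 RPKM in siNT, and Actg2, an actin of smooth muscle, at 6.05 RPKM in the Rbm38 knockdown, 17.9 RPKM in the Khsrp knockdown and 5.42 RPKM in siNT. The knockdown that stood apart from siNT thus differed by gene. In the authors' deposited table Cnn2 had a log2 fold change of -1.63 (FDR 5.2e-24) in the Rbm38 knockdown and 0.44 (FDR 0.03) in the Khsrp knockdown, and Actg2 one of 0.10 (FDR 0.83) in the Rbm38 knockdown and 1.72 (FDR 2.9e-18) in the Khsrp knockdown.

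Growth and metabolic lists leaned low in the Rbm38 knockdown. Of 30 genes of hypoxia and glycolysis 28 had a ratio below 0, with a median log2 ratio of -0.45 and 2 past 2-fold lower. These were the lactate exporter Slc16a3, at 80.95 RPKM in the Rbm38 knockdown, 213.95 RPKM in the Khsrp knockdown and 335.95 RPKM in siNT, and Bnip3, a mitophagy receptor, at 71.39 RPKM in the Rbm38 knockdown and 154.73 RPKM in the Khsrp knockdown. Ldha, lactate dehydrogenase A, was at 1106.76 RPKM in the Rbm38 knockdown and 1773.71 RPKM in the Khsrp knockdown. Of 47 genes of G2 and mitosis 42 were below 0 with a median of -0.29, of 43 genes of S phase 31 with a median of -0.13, and of 36 genes of Myc targets and ribosome assembly 30 with a median of -0.28. Only Rrm2, at 56.64 RPKM in the Rbm38 knockdown and 114.35 RPKM in the Khsrp knockdown, and Imp4, at 20.44 RPKM in the Rbm38 knockdown and 48.39 RPKM in the Khsrp knockdown, were past 2-fold lower in these 3 lists. Of the 12992 genes with at least 1 RPKM in either knockdown and a test in the authors' deposited table, 11.3% were higher than siNT at an FDR under 0.05 and 11.8% lower in the Rbm38 knockdown, and 5.96% were higher and 6.97% lower in the Khsrp knockdown. By the authors' deposited table, 13 of the hypoxia and glycolysis genes were lower than siNT at that FDR in the Rbm38 knockdown and 2 in the Khsrp knockdown. For the Myc and ribosome assembly list the authors' deposited table holds 21 lower in the Rbm38 knockdown and 4 in the Khsrp knockdown. Sterol synthesis genes had a median of -0.19 over 26 genes, and Idi1 and Stard4 were past 2-fold lower.

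Higher medians in the Rbm38 knockdown were found for interferon-response genes, at 0.30 over 27 genes with 20 ratios above 0, and for stress and amino acid genes, at 0.29 over 35 genes with 27 above 0. Atf5, a transcription factor of the integrated stress response, was at 55.56 RPKM in the Rbm38 knockdown, 20.98 RPKM in the Khsrp knockdown and 22.27 RPKM in siNT. The amino acid transporter Slc7a1 was at 68.66 RPKM in the Rbm38 knockdown, 29.77 RPKM in the Khsrp knockdown and 74.34 RPKM in siNT. Both were past 2-fold higher, but only for Atf5 was the Rbm38 knockdown the one away from siNT. Of the interferon genes Oasl2 was past 2-fold higher and Dhx58 past 2-fold lower, both at low levels. Oasl2 was at 1.07 RPKM in the Rbm38 knockdown and 0.28 RPKM in the Khsrp knockdown, and Dhx58 at 1.32 and 3.25 RPKM. Sympathoadrenal transcription factors had a median of 0.25 over 17 genes, with Myt1 and Mycn past 2-fold higher. Myt1 was at 39.67 RPKM in the Rbm38 knockdown, 15.69 RPKM in the Khsrp knockdown and 40.79 RPKM in siNT. For Mycn these levels were 20.13, 9.27 and 13.11 RPKM. Neuronal genes had a median of 0.16 over 35 genes, with Sptan1 and Nefh past 2-fold higher. Nefh was below siNT in both knockdowns, at 16.66 RPKM in the Rbm38 knockdown, 7.28 RPKM in the Khsrp knockdown and 25.34 RPKM in siNT. Sptan1 was at 101.73 RPKM in the Rbm38 knockdown, 30.36 RPKM in the Khsrp knockdown and 106.13 RPKM in siNT, alongside its called introns and microexon.

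The p53 targets, of interest since Rbm38 is one of them, had a median log2 ratio of -0.11 over 25 genes with 14 below 0, yet 5 were past 2-fold higher in the Rbm38 knockdown. These were Bbc3, Phlda3, Gdf15, Trp53inp1 and Cdkn1a. By the authors' deposited table, Bbc3, Phlda3 and Gdf15 did not differ from siNT at an FDR under 0.05 in either knockdown. Trp53inp1 was low, at 1.25 RPKM in the Rbm38 knockdown and 0.3 RPKM in the Khsrp knockdown. Its log2 fold changes against siNT there were 1.76 (FDR 4.5e-09) in the Rbm38 knockdown and -0.36 (FDR 0.57) in the Khsrp knockdown. The cell cycle inhibitor Cdkn1a was at 31.01 RPKM in the Rbm38 knockdown, 14.27 RPKM in the Khsrp knockdown and 22.49 RPKM in siNT. In the authors' deposited table its log2 fold change against siNT was 0.31 (FDR 0.16) in the Rbm38 knockdown and -0.79 (FDR 3.2e-05) in the Khsrp knockdown. The pro-apoptotic Bbc3 was at 9.28 RPKM in the Rbm38 knockdown, 3.62 RPKM in the Khsrp knockdown and 5.99 RPKM in siNT. Immediate early and AU-rich element genes had a median of 0.15 over 26 genes, with Egr1 and Il6 past 2-fold higher. Il6 was at 21.05 RPKM in the Rbm38 knockdown, 8.25 RPKM in the Khsrp knockdown and 7.81 RPKM in siNT, while Egr1 was at 11.04 RPKM in the Rbm38 knockdown, 2.99 RPKM in the Khsrp knockdown and 10.99 RPKM in siNT.

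RNA-processing lists showed small differences. mRNA decay genes had a median of -0.04 over 47 genes with Exosc5, an exosome subunit, past 2-fold lower, and the let-7 and microRNA genes one of -0.13 over 19 genes with none past 2-fold. Splicing regulators had a median of -0.16 over 59 genes, 42 of them below 0, and only Tia1 was past 2-fold higher, at 59.85 RPKM in the Rbm38 knockdown, 28.35 RPKM in the Khsrp knockdown and 40.58 RPKM in siNT. Tia1, a U-rich RNA-binding splicing factor, also held a called 66-nt exon, at PSI of 4.3 and 4.4 in the Rbm38 knockdown, against 19.4 and 14.9 in the Khsrp knockdown (-12.8 points, limma adjusted p = 0.00817). This call was lost without the A library of either knockdown and also without the B library of the Rbm38 knockdown. Matrix and adhesion genes had a median of 0.16 over 22 genes, with Itgb1 and Col4a2 past 2-fold higher and Timp3 and Lamb2 past 2-fold lower. Timp3 was low, at 0.97 RPKM in the Rbm38 knockdown and 3.41 RPKM in the Khsrp knockdown. Itgb1, integrin β1, was at 384.33 RPKM in the Rbm38 knockdown, 142.01 RPKM in the Khsrp knockdown and 334.48 RPKM in siNT.

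**Figure D5:**
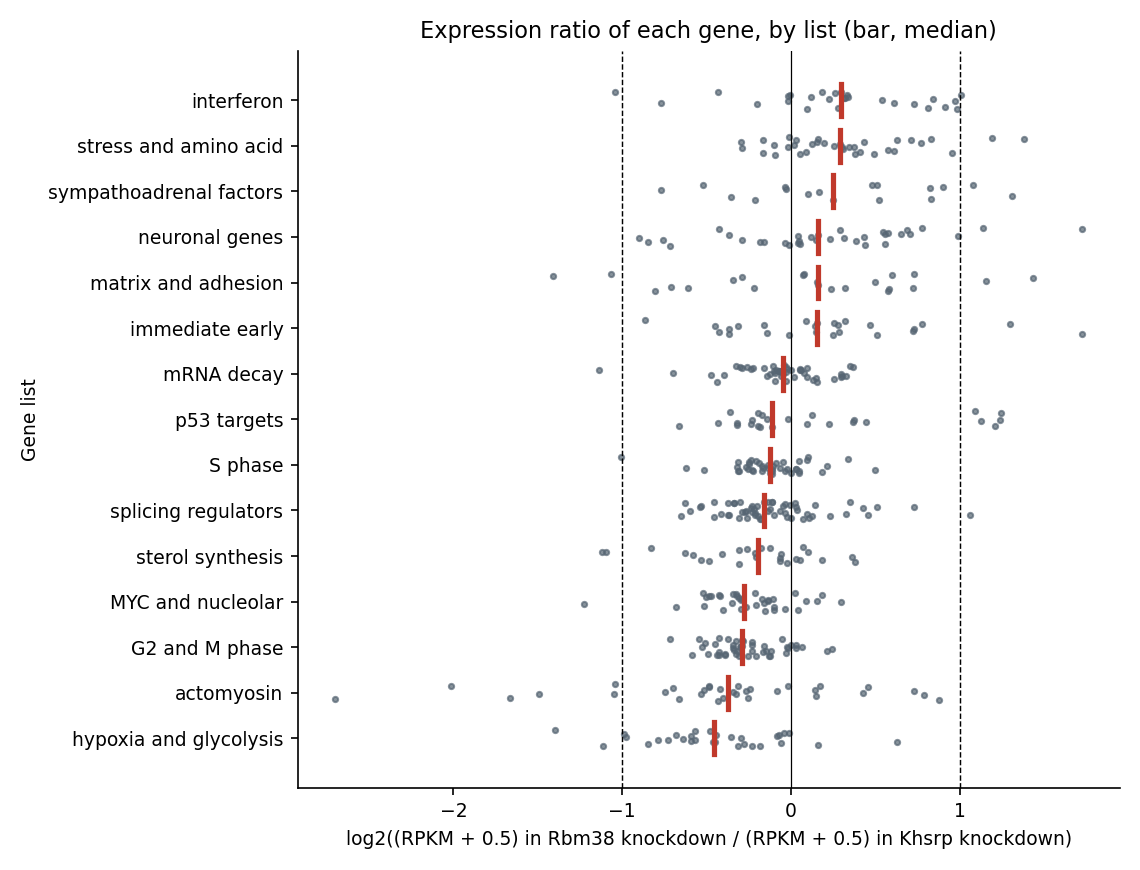
Log2 ratio of RPKM + 0.5 (Rbm38 over Khsrp knockdown) for each gene of 15 lists, with a bar at each median and dashed lines at 2-fold. The medians run from -0.45 for hypoxia and glycolysis to 0.30 for the interferon response, and nearly all genes lie within the dashed lines.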

How the data were processed

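The authors deposited, per the file headers, a vast-tools table with PSI in percent and a quality text that holds corrected inclusion and exclusion reads per library, beside group PSI scores and true or false calls of the authors' that were used only to describe. Per the file headers, the authors' expression table gives 1 RPKM per group for 52661 genes, with log2 fold changes, p-values and FDR against siNT for 23378. The submitters' processing notes name Salmon 0.14.1, edgeR and mm10, and say nothing of how replicates became 1 value. Per the labels' protocols, libraries were stranded and from poly(A) RNA.

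From the reads, log2((inclusion + 0.5)/(exclusion + 0.5)) was fitted with limma 3.58.1 (R 4.3.3), weighted by binomial information, with 1 mean per group over 11 libraries and a trend in the prior variance. Events needed 10 reads in every library and a mean PSI of 1 to 99. First sites of alternative splice sites, 37194 of 401633 entries, were left out as complements. Only the limma p-values rest on replicates, 2 in each of the groups compared. They weigh a difference against a spread estimated within the groups over all 11 libraries and moderated across events. Groups and replicate letters were read from each description field, as the 2 Fubp1 titles carry the same letter. The event coordinates do not follow GRCm38 and none is printed. Exons were matched to GENCODE vM21 by chromosome and lengths, which succeeded for 145 of the 172 called exons and microexons. The script was tested on simulated data.

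Members and the 21 gene lists were chosen with earlier results of these data known. Named events were those with 20 reads in each library compared, no overlap, and the largest differences (10 longer exons, 5 microexons, 5 introns and 3 splice sites per direction), all tested events of Rbm38, Khsrp, Src and Epb41, and called events of the splicing list. A few items that this rule names are not reported here. Named genes were the 12 highest and 12 lowest ratios at 5 RPKM, Rbm38, Khsrp and their paralogs, and 3 per list. Other genes past 2-fold in a list, host genes, regulators and the called events of Psap, Mon2, Eif4g1, Tenm3, Incenp, Hook3, Spag9, Tia1, Rif1 and Atp2a2 were named after their values were seen. Paralogs Fubp1 and Fubp3 were at 134.94 and 56.68 RPKM in the Rbm38 knockdown and 189.89 and 72.59 RPKM in the Khsrp knockdown, and Rbm24 at 0 in both. Expression was fitted by no model, as 1 value per group allows none.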

Additional observations from a re-analysis of the deposited data

How the results depend on the processing

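No call shared between settings changed direction, and no microexon was called lower except 1 when the 10-point limit was dropped. The 202 calls (157 higher, 45 lower, 44 microexons) became 44 (37 higher, 7 lower, 14 microexons) with no filter on mean PSI, 36 (28, 8 and 9) without weights, 117 (95, 22 and 30) from the 4 libraries compared alone, 118 (97, 21 and 27) from the 7 libraries numbered 8 to 27, and 335 with a quasi-binomial fit, where 102 were lower and 69 of those higher were microexons. A limit of 15 points left 29 of the lower calls. Leaving out 1 library gave 44 to 235 calls, with 33 to 182 higher, 11 to 53 lower and 14 to 47 microexons. They were 44 without Khsrp knockdown A, 85 without Khsrp knockdown B, 92 without Rbm38 knockdown A and 102 without Rbm38 knockdown B, and the microexons were then 14, 21, 22 and 27. The cause was not tested. Of 75 named called events, 19 kept the call without each single library and 11 in every setting. A term for the library-number set gave 253 calls. With the replicate block 250 events were called (194 higher, 56 lower, 53 microexons). A minus B differences of the Rbm38 and Khsrp knockdowns correlated at -0.0098 across events. Over all pairs of knockdown groups the correlations ran from -0.062 to 0.054. Such differences also hold counting error, so they cannot decide whether the replicate letters pair the samples. Leaving out introns with unbalanced ends, chosen after seeing the data, gave 204 calls. A minimum of 5 RPKM left 241 genes past 2-fold higher and 174 lower, of 528 and 391. Reads per event limit what was callable, and expression has no replicates. Flanking introns and motifs were not examined.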

Other observations

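Of the 172 genes with a call, 24 held several, and 12 of these held calls in both directions, including pairs that count as 1 choice, as in Tpm1, Snap25 and Alkbh1. How many such genes their numbers of tested events would give was not tested. In Golga2, a Golgi matrix protein gene, an 81-nt exon had PSI of 66.6 and 62.9 in the Rbm38 knockdown, against 37.8 and 40.4 in the Khsrp knockdown (25.6 points), while another 81-nt exon had 58.8 and 56.4 in the Rbm38 knockdown, against 75.4 and 71.6 in the Khsrp knockdown (-15.9 points). In Arfgap1, which controls Golgi coat release, a 30-nt exon had 76.0 and 69.8 in the Rbm38 knockdown, against 44.9 and 39.8 in the Khsrp knockdown (30.5 points), and a 60-nt exon had 5.8 and 6.9 in the Rbm38 knockdown, against 18.2 and 17.1 in the Khsrp knockdown (-11.3 points). Eif4g1 had, beside its microexon, a 57-nt exon at 65.7 and 62.8 in the Rbm38 knockdown, against 80.1 and 81.7 in the Khsrp knockdown (-16.6 points). Sbf1 likewise had a 24-nt microexon 12 points higher and a 78-nt exon 28.4 points lower. In Adgrl2, a latrophilin, and in Sh3glb1, an endophilin, a microexon and a 39-nt exon were both higher in the Rbm38 knockdown, by 38.5 and 22.4 points in Adgrl2 and by 28.5 and 15.1 points in Sh3glb1. Of these calls those of the Sh3glb1 and Eif4g1 microexons held without each library, and the others were lost without the A library of the Khsrp knockdown. These genes were picked after their values were seen.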
